A study of Homo sapiens with 16 samples.

Results

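Untreated Jurkat cells were compared with untreated BJAB cells. Jurkat is a human T cell leukaemia line and BJAB is a human B cell lymphoma line, and the labels give both as wild type and untreated. All 27311 genes listed for the 4 libraries, 2 per line, were considered. The 12306 genes at 1 or more TPM, the share of transcripts scaled to a fixed total per library, in at least 2 of the 4 libraries were tested. These 4 libraries belong to a series of 16, in which 4 immune cancer lines were sequenced with and without 4 hours of stimulation. The monocytic lines THP-1, which carries dCas9-KRAB, and U937, which is wild type, serve here as untreated reference lines. The stimulated libraries used below are Jurkat with anti-CD3 and PMA and BJAB with anti-IgM and anti-CD40. No label says whether the libraries of a line came from separate cultures, so every p-value and standard error below measures the spread between libraries, which may be technical. Each line is 1 cell line, so a difference between them is a difference between these lines and cannot be told apart from a difference between T and B cells in general.

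T and B lymphocytes each recognise antigen through a receptor that has no signalling domain of its own. In T cells the CD3 chains carry the signal to the kinases LCK and ZAP70 and the adaptor LAT. In B cells CD79A and CD79B carry it to SYK, BTK, the adaptor BLNK and phospholipase C gamma 2, and lineage transcription factors such as GATA3 and TCF7 on the T side and PAX5 and EBF1 on the B side keep the lineages apart.

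Whole reads recovered from the TPM steps put the depth at 8136836 and 6268819 reads in the Jurkat libraries and at 6281960 and 6789276 in the BJAB libraries. The libraries of a line correlated across the tested genes at r = 0.9894 in Jurkat and 0.9876 in BJAB. The SD of the log2 difference between the libraries of a line was 0.344 and 0.398. Levels of the defining markers matched the labels, but the markers were chosen with earlier results of these data known. The counts that follow are thus no independent check of cell identity. Over all tested genes, 39.0% were called higher in Jurkat and 23.3% in BJAB. Of 13 T cell markers, 13 were higher in Jurkat, with a median of 251 and 274 TPM against 0 and 0.415 TPM in BJAB. Of 12 B cell markers, 12 were higher in BJAB, with a median of 143 and 180 TPM against 0.666 and 0.52 TPM in Jurkat. The median of each marker set was near 0 in the monocytic lines, at 0 to 0.697 TPM. A median does not show that every marker was low there.

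limma on log2(TPM + 1) called 7668 of the 12306 tested genes (62.3%) at an adjusted p below 0.05. Of these, 4801 were higher in Jurkat (39.0%) and 2867 were higher in BJAB (23.3%). At a log2 difference of at least 1, 2775 genes (22.5%) were higher in Jurkat and 1614 (13.1%) in BJAB. The libraries did not overlap for 6042 genes with Jurkat above BJAB (49.1%) and for 3738 with BJAB above Jurkat (30.4%), together 79.5% of those tested. The excess of calls in Jurkat depended on the scaling. The median log2 difference of all tested genes was 0.21 as deposited. Median-of-ratios scaling moved it to 0.03 and gave 3976 genes higher in Jurkat and 3608 in BJAB, and quantile normalization moved it to -0.01 and gave 3813 and 3733. A count of list members below is therefore to be read against 39.0% and 23.3% of all tested genes.

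**Figure D1:**
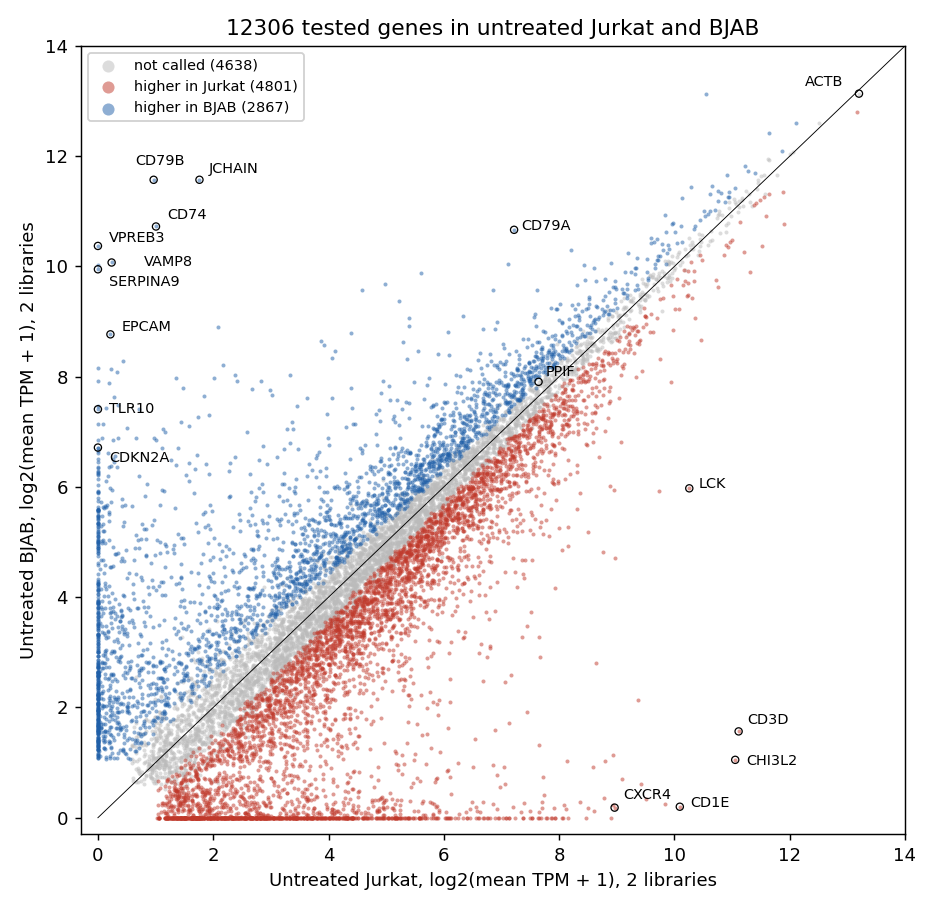
Mean level of each tested gene in untreated Jurkat (x axis) and untreated BJAB (y axis), as log2(mean TPM + 1) of 2 libraries per line. Each point is a gene, red where called higher in Jurkat, blue where called higher in BJAB and grey where not called; the line marks equal levels. Labelled genes were chosen after their values were seen: CD3D and CHI3L2 lie at the far right near the bottom and CD79B and JCHAIN at the top left, while ACTB and PPIF lie near the line.

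Genes of the T cell receptor were higher in Jurkat. All 7 tested members of the receptor complex list were higher in Jurkat, with a median log2 difference of 6.39 against 0.21 for all genes. CD3D, a signalling chain of the receptor, stood at 2333 and 2098 TPM in Jurkat and at 1.38 and 2.54 TPM in BJAB. The log2 difference was 9.57 ± 0.21 (SE; adjusted p = 2.83e-08). In bulk libraries such as these, fewer cells holding a transcript and less of it per cell cannot be told apart. CD3G was at 553 and 542 TPM against 0.782 and 0.479 TPM, and CD3E at 371 and 393 TPM against 1.36 and 0.415 TPM. CD247, the zeta chain, differed less, at 251 and 277 TPM against 26.2 and 29.7 TPM. Its log2 difference was 3.19 ± 0.16 (adjusted p = 1.12e-06), and BJAB held clearly measurable CD247. TRAT1, an adaptor tied to the receptor, was at 89.8 and 76.7 TPM in Jurkat and listed at 0 in both BJAB libraries. Against a floor of 3 reads per library it was at least 162-fold higher. The coreceptor CD4 was low in Jurkat, at 18.3 and 20.4 TPM, and lower still in BJAB, at 2.18 and 1.91 TPM. The constant segments TRAC, TRBC1 and TRBC2 were not analysed here.

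Of 22 tested genes of T cell receptor proximal signalling, 16 were higher in Jurkat and 5 in BJAB, with a median log2 difference of 2.43. ZAP70, the kinase that docks on phosphorylated CD3, was at 330 and 397 TPM in Jurkat and at 0 and 0.247 TPM in BJAB. The log2 difference was 8.34 ± 0.19 (adjusted p = 3.22e-08). LAT, the membrane adaptor that ZAP70 phosphorylates, was at 290 and 274 TPM against 0.556 and 1.53 TPM. GRAP2, an adaptor that binds LAT, was at 46 and 56.7 TPM and listed at 0 in BJAB, at least 212-fold higher. UBASH3A, a negative regulator of the pathway, was at 35.8 and 31.7 TPM against 0 and 0.246 TPM. LCK, the kinase that starts the cascade, was also present in BJAB, at 64.9 and 58.9 TPM beside 1288 and 1161 TPM in Jurkat. FYN, CSK, PTPRC and MALT1 were among the members higher in BJAB, and these are not restricted to T cells. FYN kept its call in 7 of 16 alternatives and lost it without any 1 of the 4 libraries, and MALT1 kept it in 11 and lost it without the second library of either line. CSK, which inhibits SRC family kinases, was at 326 and 349 TPM in BJAB and at 59.7 and 57.4 TPM in Jurkat.

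The promoter of ZAP70 is shown because it holds a match to a TCF/LEF site, the motif bound by the T lineage factors TCF7 and LEF1, which themselves separated the lines. The sequence runs from 250 bases before to 50 bases after the RefSeq gene start in GRCh38.p14, and capitals mark the match to ATCAAAG or its reverse complement CTTTGAT, which begins 59 bases before the start.
ZAP70, chr2:97713326-97713625, plus strand: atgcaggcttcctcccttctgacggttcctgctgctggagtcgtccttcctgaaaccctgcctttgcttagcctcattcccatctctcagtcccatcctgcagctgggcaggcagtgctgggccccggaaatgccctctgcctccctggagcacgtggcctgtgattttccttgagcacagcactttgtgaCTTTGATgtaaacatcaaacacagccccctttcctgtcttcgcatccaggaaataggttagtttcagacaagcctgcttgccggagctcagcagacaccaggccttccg
Either form was found in 2.64% of 27305 RefSeq promoters of this length and in 1.41% of the 9283 promoters of tested genes. The share was 1.8% for genes higher in Jurkat by at least 1 on the log2 scale and 1.33% for genes higher in BJAB by at least 1. DAPP1, which was higher in BJAB, also holds a match. A match is a description of these letters and not a measured site.

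Surface molecules of T cells and thymocytes followed the same side. Of 21 tested members, 17 were higher in Jurkat and 3 in BJAB, with a median log2 difference of 4.42. CD1E, a lipid antigen presenting molecule of cortical thymocytes, was at 1159 and 1025 TPM in Jurkat and at 0 and 0.297 TPM in BJAB. CD1B was at 224 and 178 TPM and listed at 0 in BJAB. CD2, an adhesion receptor, was at 248 and 219 TPM against 0 in both BJAB libraries, at least 389-fold higher. IL2RG, the gamma chain shared by several interleukin receptors, was at 493 and 483 TPM in Jurkat and at 1.78 and 0.614 TPM in BJAB. CD28, the costimulatory receptor, was at 69.8 and 60.1 TPM against 0.14 and 0 TPM. The 3 members higher in BJAB were CD27, HAVCR2 and SLAMF1, each also known from other lymphocytes or myeloid cells. CTLA4 and LAG3 were listed at 0 in all 4 libraries.

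**Figure D2:**
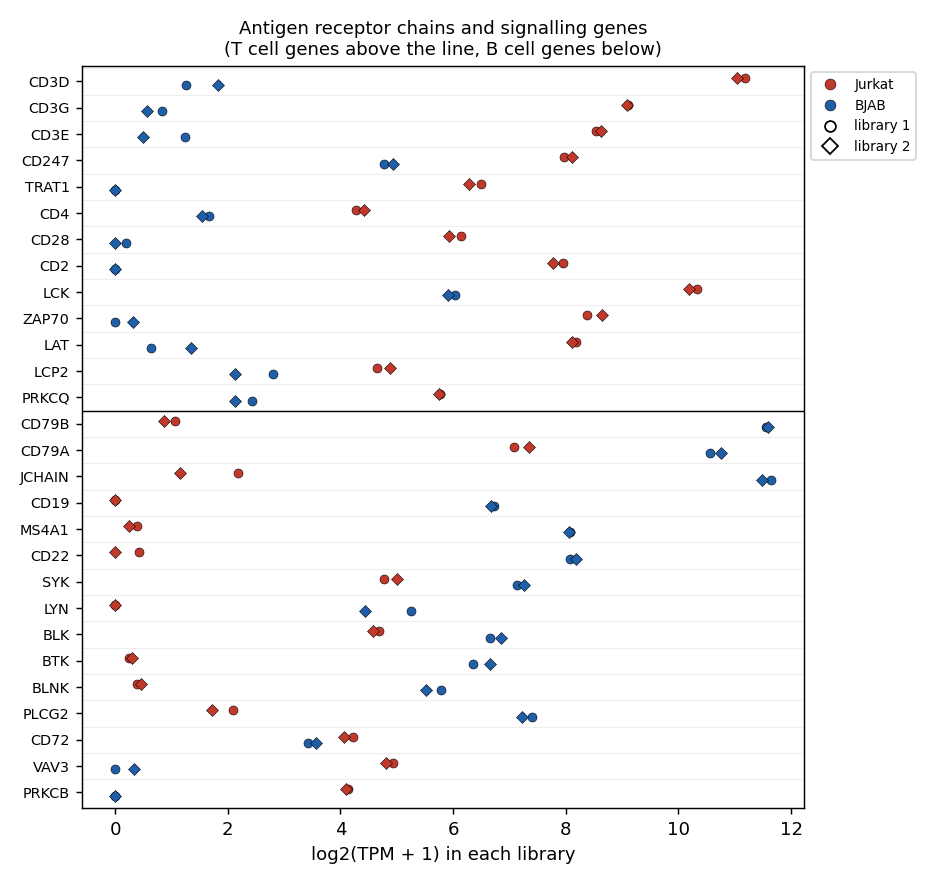
Level of antigen receptor chains and signalling genes in each library, as log2(TPM + 1), with Jurkat in red, BJAB in blue, circles for the first and diamonds for the second library. T cell genes stand above the line and B cell genes below it; the genes drawn were chosen from the lists after their values were seen. LCK and CD247 are detected in BJAB and CD79A, SYK and BLK in Jurkat, while VAV3 and PRKCB of the B cell lists are higher in Jurkat.

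On the B side, 11 of 12 tested members of the B cell receptor complex list were higher in BJAB and none in Jurkat, with a median log2 difference of -7.08. CD79B, a signalling chain of the receptor, was at 3005 and 3082 TPM in BJAB and at 1.09 and 0.816 TPM in Jurkat. The log2 difference was -10.61 ± 0.39 (adjusted p = 2.24e-07), the largest among the named genes in either direction. Its partner CD79A behaved differently. It was at 1514 and 1729 TPM in BJAB and at 135 and 161 TPM in Jurkat, so the difference of -3.45 ± 0.36 (adjusted p = 7.84e-05) left a clear level in the T cell line. JCHAIN, which joins polymeric immunoglobulin, was at 3213 and 2876 TPM in BJAB and at 3.56 and 1.23 TPM in Jurkat. CD22, an inhibitory coreceptor, was at 269 and 291 TPM against 0.338 and 0 TPM. IGLL5 was at 1021 and 1064 TPM in BJAB and listed at 0 in Jurkat. Its sequence overlaps the immunoglobulin lambda constant region, so its reads may come from that locus and its value is uncertain. CD72 was the member that was not called, at 9.72 and 10.8 TPM in BJAB and 17.6 and 15.7 TPM in Jurkat (adjusted p = 0.278). The immunoglobulin constant genes IGHM, IGHD, IGHG1, IGKC and IGLC1 were not analysed here.

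Of 19 tested genes of B cell receptor proximal signalling, 13 were higher in BJAB and 4 in Jurkat, with a median of -2.13. BTK, the kinase whose loss blocks B cell development, was at 80.3 and 100 TPM in BJAB and at 0.18 and 0.224 TPM in Jurkat. The monocytic lines also held BTK, with 86.6 and 76.6 TPM for THP-1 and higher levels, 168 and 173 TPM, for U937. PLCG2, the phospholipase BTK activates, was at 168 and 148 TPM in BJAB against 3.29 and 2.31 TPM in Jurkat. BLNK, the adaptor between them, was at 54.4 and 44.9 TPM against 0.305 and 0.38 TPM, and PIK3AP1, which couples the receptor to PI3 kinase, at 137 and 115 TPM against 1.39 and 1.08 TPM. SYK differed by less and was present in both lines, at 140 and 152 TPM in BJAB and 26.3 and 31 TPM in Jurkat. VAV3, PRKCB and FGR were among the members higher in Jurkat. PRKCB, protein kinase C beta, was at 16.5 and 16.2 TPM in Jurkat and listed at 0 in both BJAB libraries, at least 133-fold higher in Jurkat.

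Genes of antigen receptor recombination were measured in both lines but with a different split. Of 14 tested members, 11 were higher in Jurkat and 2 in BJAB, with a median log2 difference of 0.71. DNTT, the polymerase that adds untemplated bases at junctions, was at 284 and 255 TPM in Jurkat and at 0.335 and 0 TPM in BJAB. RAG2 and RAG1, the recombinase subunits, were at 43.7 and 34.8 TPM and at 17.6 and 16.3 TPM in Jurkat, and both were listed at 0 in BJAB. Each was at least 113-fold higher in Jurkat. The end-joining genes XRCC5 and XRCC6 differed by log2 values of only 0.55 and 0.24, and XRCC6 kept its call in 6 of 16 alternatives, losing it without the second BJAB library or either Jurkat library. With median-of-ratios scaling 8 of the 14 were higher in Jurkat. VPREB3, which associates with immunoglobulin chains in B cells, was the main member on the other side, at 1249 and 1400 TPM in BJAB and 0 in Jurkat, at least 826-fold higher in BJAB.

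Of 18 tested T lineage and T leukaemia transcription factors, 13 were higher in Jurkat and 4 in BJAB, with a median of 4.05. LEF1 was at 200 and 202 TPM against 0 and 0.152 TPM, and its relative TCF7 at 84.8 and 92.1 TPM against 0 and 0.435 TPM. MYB was at 135 and 127 TPM against 1.31 and 0.451 TPM. TAL1 and LMO1, which are known to be activated in T cell leukaemia, were at 60.1 and 55 TPM and at 20.7 and 19.8 TPM in Jurkat and listed at 0 in BJAB. TOX did not differ by the test, at 89.3 and 88.3 TPM in Jurkat and 113 and 91.9 TPM in BJAB (adjusted p = 0.377). TOX2, RUNX3, LYL1 and ZBTB7B were the members higher in BJAB.

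Of 22 tested B lineage factors, 15 were higher in BJAB and 3 in Jurkat, with a median of -2.47. BCL6, the repressor that defines germinal centre B cells, was at 502 and 450 TPM in BJAB and at 3.43 and 3.06 TPM in Jurkat. SPIB was at 173 and 222 TPM against 0.315 and 0.0984 TPM, and POU2F2, the B cell octamer factor, at 149 and 191 TPM against 0.504 and 0.773 TPM. MEF2C was at 48 and 46 TPM and listed at 0 in Jurkat, at least 344-fold higher in BJAB. PAX5, the factor that fixes B cell identity, was low in BJAB at 4.73 and 11 TPM and listed at 0 in Jurkat. IKZF1 and TCF3, which both lineages use, did not pass the test. IKZF1 was at 50.4 and 44 TPM in Jurkat and 47.5 and 45.6 TPM in BJAB (adjusted p = 0.904). BCL11A, BACH2 and FOXP1 were the members higher in Jurkat, but BCL11A kept its call in only 5 of 16 alternatives, with adjusted p up to 0.388, and lost it without any 1 of the 4 libraries. IRF4 and PRDM1, which drive plasma cell differentiation, stayed at or below 1.14 TPM in all 4 libraries and were not tested.

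**Figure D3:**
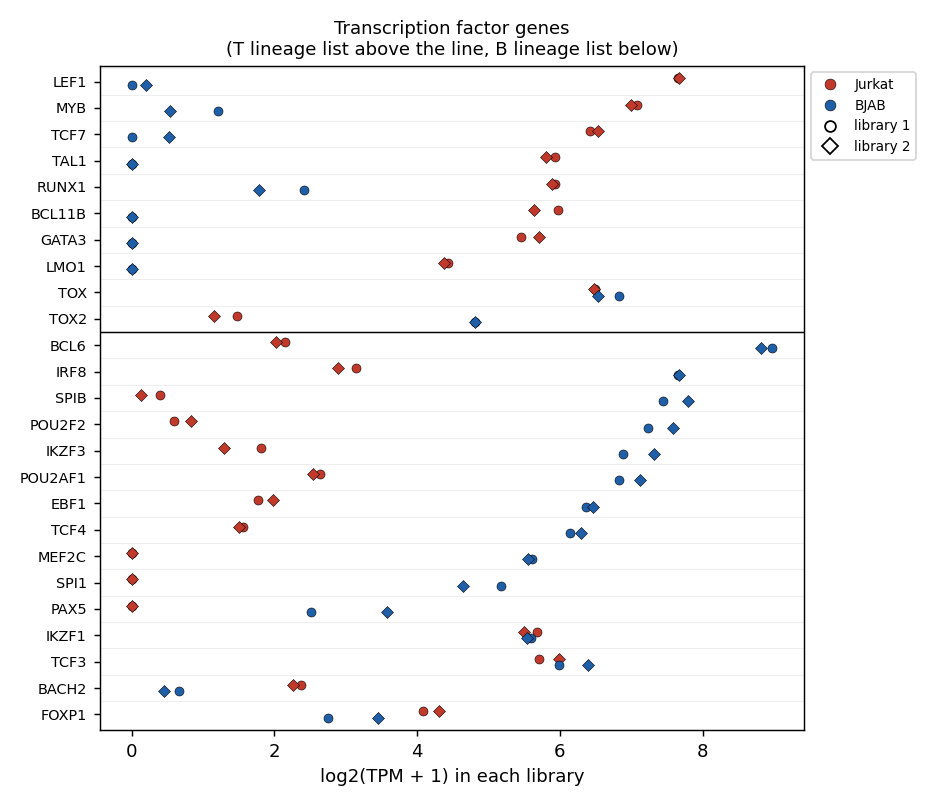
Level of lineage transcription factor genes in each library, as log2(TPM + 1), with Jurkat in red, BJAB in blue, circles for the first and diamonds for the second library. T lineage factors stand above the line and B lineage factors below it; the genes drawn were chosen from the lists after their values were seen. TOX, IKZF1 and TCF3 lie together in both lines, and TOX2, BACH2 and FOXP1 lie on the opposite side from most of their list.

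Genes of the germinal centre, the site where B cells mutate and select their receptors, were mostly higher in BJAB. Of 22 tested germinal centre and B cell surface genes, 18 were higher in BJAB and 3 in Jurkat, with a median of -3.1. SERPINA9, a protease inhibitor of germinal centre B cells, was at 1087 and 888 TPM in BJAB and listed at 0 in Jurkat, at least 2040-fold higher. RGS13, which dampens chemokine receptor signalling, was at 324 and 294 TPM against 0.713 and 0 TPM. STAP1 was at 124 and 105 TPM and listed at 0 in Jurkat. S1PR2, which confines B cells to the follicle, was at 424 and 374 TPM in BJAB and at 13.4 and 14 TPM in Jurkat. The members higher in Jurkat were CD83, CXCR4 and CCR7.

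The promoters of VPREB3, SERPINA9 and TLR9 are shown because these genes of BJAB hold the octamer, the motif bound by POU2F2 and its coactivator POU2AF1. They span the same window in GRCh38.p14, and capitals mark ATGCAAAT or its reverse complement ATTTGCAT. The octamer begins 47 bases before the start in VPREB3, 133 and 96 bases before it in SERPINA9 and 101 bases before it in TLR9.
VPREB3, chr22:23754376-23754675, minus strand: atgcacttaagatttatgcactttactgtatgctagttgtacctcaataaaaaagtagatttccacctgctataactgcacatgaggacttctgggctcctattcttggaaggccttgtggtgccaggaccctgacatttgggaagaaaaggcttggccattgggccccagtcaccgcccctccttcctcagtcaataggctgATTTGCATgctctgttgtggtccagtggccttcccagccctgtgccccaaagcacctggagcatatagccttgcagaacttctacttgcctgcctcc
SERPINA9, chr14:94476148-94476447, minus strand: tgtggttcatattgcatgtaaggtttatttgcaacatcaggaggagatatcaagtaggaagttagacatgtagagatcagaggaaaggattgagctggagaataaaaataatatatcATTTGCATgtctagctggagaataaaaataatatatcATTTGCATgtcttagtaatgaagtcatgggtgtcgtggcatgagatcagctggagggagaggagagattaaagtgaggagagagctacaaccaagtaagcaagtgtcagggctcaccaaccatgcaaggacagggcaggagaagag
TLR9, chr3:52225596-52225895, minus strand: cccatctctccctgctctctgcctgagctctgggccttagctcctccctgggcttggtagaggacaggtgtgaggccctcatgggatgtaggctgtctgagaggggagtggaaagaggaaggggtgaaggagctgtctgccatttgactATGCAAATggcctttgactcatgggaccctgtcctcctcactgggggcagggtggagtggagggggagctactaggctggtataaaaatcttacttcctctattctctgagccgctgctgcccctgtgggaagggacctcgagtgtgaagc
The octamer was found in 1.8% of all 27305 promoters, in 1.23% of those of tested genes, in 2.24% of 1204 promoters of genes higher in BJAB by at least 1 and in 1.31% of 2054 promoters of genes higher in Jurkat by at least 1. PRKCB and E2F3, which were higher in Jurkat, also hold it, E2F3 with 2 matches. Promoters were matched by symbol for 101 of the 139 genes named by rule.

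Antigen presentation differed by class. Of 13 tested class II and loading genes, 11 were higher in BJAB and 2, RFX5 and RFXAP, in Jurkat, with a median of -2.24. RFXAP kept its call in 11 of 16 alternatives and lost it without the second BJAB or the first Jurkat library. CD74, the invariant chain, was at 1717 and 1664 TPM in BJAB and at 0.993 and 1.03 TPM in Jurkat (log2 difference -9.71 ± 0.12, adjusted p = 5.78e-09). IFI30, a lysosomal thiol reductase of antigen processing, was at 904 and 982 TPM against 50.4 and 45.3 TPM. CTSS, which trims the invariant chain, was at 29 and 34.9 TPM against 0.271 and 0 TPM. HLA-DRA reached only 17.2 and 16.5 TPM in BJAB and 0.0621 and 0.155 TPM in Jurkat. Genes of this polymorphic region have close copies, and only uniquely aligned reads were counted, so their levels may be too low. The size of this was not tested. Of 19 tested class I and peptide supply genes, 12 were higher in Jurkat and 3 in BJAB, with a median of 0.86. PSMB9, an immunoproteasome subunit, was at 33.9 and 33.2 TPM in Jurkat and 7.59 and 4.73 TPM in BJAB, and the transporter TAP1 at 7.01 and 5.56 TPM against 1.56 and 1.6 TPM. HLA-B was higher in BJAB, at 58.4 and 59 TPM against 17.4 and 21.6 TPM. B2M, the light chain, was at 3730 and 3265 TPM in Jurkat and 3477 and 2957 TPM in BJAB and was not called (adjusted p = 0.357).

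Receptors for migration and adhesion were mostly higher in Jurkat. Of 13 tested chemokine, sphingosine and positioning receptors, 10 were higher in Jurkat and 3 in BJAB, with a median of 2.82. CXCR4, the receptor for CXCL12, was at 523 and 472 TPM in Jurkat and at 0 and 0.27 TPM in BJAB. S1PR3 was at 31.4 and 27.3 TPM and listed at 0 in BJAB. The members higher in BJAB were CXCR5, the follicle homing receptor, S1PR2 and P2RY8. P2RY8 differed by a log2 value of only -0.47 and kept its call in 14 of 16 alternatives. Of 20 tested integrins and adhesion molecules, 12 were higher in Jurkat and 5 in BJAB, with a median of 1.35. ITGA4 was at 86.9 and 80.7 TPM in Jurkat and listed at 0 in BJAB, at least 652-fold higher. ITGAL was at 35.1 and 32.9 TPM against 0.197 and 0 TPM, while its partner chain ITGB2 was not called, at 105 and 121 TPM against 97.6 and 121 TPM (adjusted p = 0.713). SELPLG, a selectin ligand, was at 214 and 189 TPM against 6.63 and 6.55 TPM. CD44 was listed at 0 in all 4 libraries.

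Among 23 tested TNF superfamily genes, 8 were higher in Jurkat and 12 in BJAB, with a median of -0.96. The ligand and receptor of a known pair lay on opposite sides. CD40LG was at 33.4 and 42.1 TPM in Jurkat and listed at 0 in BJAB, and CD40 was at 39.2 and 43.2 TPM in BJAB and listed at 0 in Jurkat. TNFRSF18 was at 102 and 134 TPM in BJAB against 0 and 1.16 TPM, and the death receptor TNFRSF10A at 51 and 45.2 TPM against 0.159 and 0 TPM. Of 18 tested NF-kB genes, 4 were higher in Jurkat and 8 in BJAB, with a median of -0.26. TNFAIP3, the A20 inhibitor of the pathway, was at 37.1 and 34.7 TPM in Jurkat and 0.722 and 0.928 TPM in BJAB. RELB, a subunit of the alternative pathway, was at 16.2 and 15.1 TPM in BJAB and 1.1 and 0.611 TPM in Jurkat. BCL2A1 and ICAM1, known targets, were at 24.3 and 29.7 TPM and at 18.2 and 20.7 TPM in BJAB, and at 2.14 TPM or lower in Jurkat.

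Innate sensors split evenly, with 7 of 17 tested members higher in Jurkat and 7 in BJAB. TLR10 was at 197 and 140 TPM in BJAB and listed at 0 in Jurkat, at least 717-fold higher. TLR9, a receptor for unmethylated DNA whose promoter is printed above, was at 91.1 and 116 TPM in BJAB against 1.65 and 1.62 TPM. PYCARD, the inflammasome adaptor, was at 67.7 and 76.8 TPM against 0.36 and 0.898 TPM. TMEM173, which encodes STING, was at 53.1 and 63.4 TPM in Jurkat and at 0.31 and 0 TPM in BJAB. Of 34 tested interferon-stimulated genes, 17 were higher in Jurkat and 11 in BJAB, with a median of 0.43. IFITM1 was at 165 and 158 TPM in Jurkat against 9.06 and 8.33 TPM, XAF1 at 38.9 and 33.1 TPM against 0.566 and 1.3 TPM, and GBP1 at 23.1 and 18.1 TPM against 0 in BJAB. IRF9 was higher in BJAB, at 77 and 73.2 TPM against 8.79 and 7.86 TPM.

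Cytotoxic granule genes were mostly on the Jurkat side, with 8 of 9 tested members higher there and 1, SRGN, in BJAB. GZMA was at 67.4 and 61.2 TPM in Jurkat and listed at 0 in BJAB, CTSW at 25.1 and 23.8 TPM, and PRF1, perforin, at 11 and 14 TPM against 0.27 and 0.248 TPM. Markers of other cells were few. Of 21 monocytic and granulocytic markers, 7 reached the level for testing, and ELANE, PRTN3, AZU1 and MPO were at or below 0.68 TPM in all 4 libraries. The summed level of the list was 506 and 516 TPM in Jurkat and 119 and 107 TPM in BJAB, against 9824 to 11560 TPM in the monocytic lines. The 2 members higher in Jurkat were CTSG, cathepsin G of neutrophil granules, at 485 and 490 TPM against 0 and 0.34 TPM in BJAB, and CEBPE, a granulocyte transcription factor, at 11 and 19.8 TPM against 0 in both BJAB libraries. In BJAB, CD33 was at 84.3 and 79.8 TPM against 0.346 and 0 TPM in Jurkat. The epithelial adhesion gene EPCAM was at 438 and 432 TPM in BJAB and at 0.324 and 0 TPM in Jurkat, and RAB25, a small GTPase known from epithelial cells, was at 262 and 306 TPM in BJAB and listed at 0 in Jurkat. KRT19 and CDH1 were listed at 0 in all 4 libraries, and KRT8 and KRT18 stayed at or below 1.06 TPM. Natural killer markers were near 0, with KLRF1 at 3.03 and 1.27 TPM in BJAB and 0 in Jurkat, a call that was lost without the first BJAB library (adjusted p = 0.163), without the first or second Jurkat library (0.119 and 0.117) and at a pseudocount of 5 (0.0743).

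**Figure D4:**
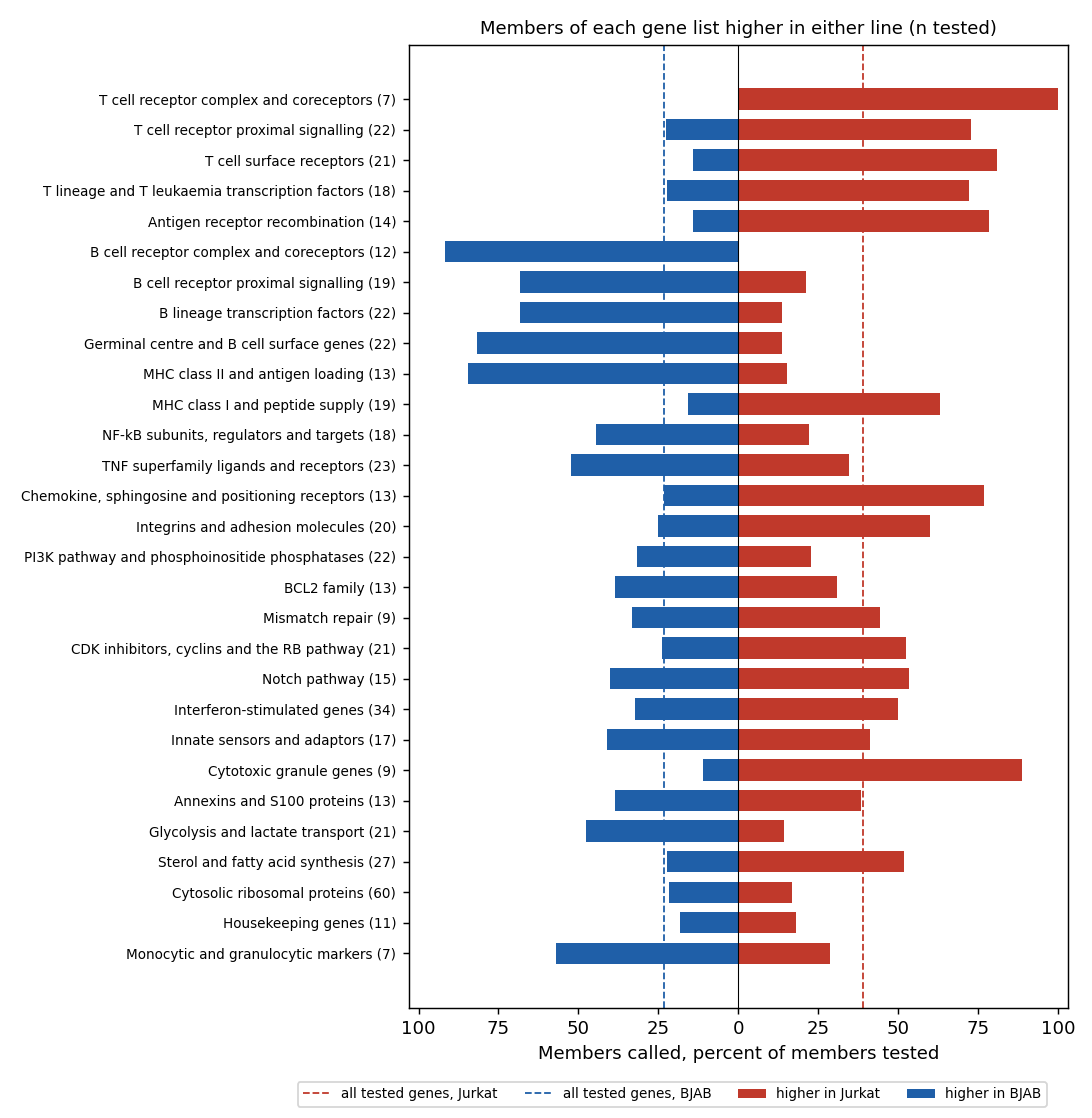
Share of the tested members of each gene list that were called higher in Jurkat (red, to the right) or higher in BJAB (blue, to the left), in percent, with the number tested in parentheses. Dashed lines mark the shares for all 12306 tested genes, 39.0% and 23.3%; lists with under 7 tested members and 1 list not reported here are left out. The T cell receptor complex reaches 7 of 7 members on the Jurkat side, and the B cell receptor complex 11 of 12 on the BJAB side.

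Genes of growth control and genome maintenance were measured because both lines are tumour lines. CDKN2A, which encodes the inhibitors p16 and ARF, was at 109 and 99.6 TPM in BJAB and listed at 0 in both Jurkat libraries, at least 231-fold higher in BJAB. CDK6, a kinase that p16 inhibits, was at 440 and 424 TPM in Jurkat and 25.7 and 29 TPM in BJAB. CCND3, its cyclin partner, was at 417 and 411 TPM against 91.1 and 93 TPM, and CDKN1B at 43.7 and 40.6 TPM against 2.3 and 4.61 TPM. The list of CDK inhibitors, cyclins and the RB pathway had 11 of 21 tested members higher in Jurkat and 5 in BJAB. MSH6, a mismatch repair gene, was at 64.1 and 51.9 TPM in Jurkat and at 133 and 126 TPM in BJAB. The mismatch repair list as a whole had 4 of 9 members higher in Jurkat and 3 in BJAB, a split that became 3 and 3 under median-of-ratios scaling and 3 and 4 under quantile normalization.

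INPP5D, the phosphatase SHIP1, was at 5.41 and 7.76 TPM in Jurkat and 30.3 and 35.3 TPM in BJAB. Of the 22 tested PI3K pathway genes, 5 were higher in Jurkat, 7 in BJAB and 10 were not called. Under median-of-ratios scaling and quantile normalization, 3 and 2 were higher in Jurkat. FOXO1, a factor that the pathway restrains, was at 15.8 TPM in both BJAB libraries and at 0.679 and 0.363 TPM in Jurkat. Of 13 tested BCL2 family genes, 4 were higher in Jurkat and 5 in BJAB, with BID and BCL2L1 on the Jurkat side. MCL1 was at 163 and 85.5 TPM in BJAB and at 29.2 and 25.4 TPM in Jurkat, with a wide spread between the BJAB libraries.

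The Notch list had 8 of 15 tested members higher in Jurkat and 6 in BJAB. HES4 and HES1, target genes, were at 10.4 and 19.7 TPM and at 3.62 and 6.89 TPM in Jurkat, and at 0.215 TPM or lower in BJAB. HEY1, another target, was on the BJAB side, at 32.2 and 27.4 TPM against 1.51 and 1.48 TPM. Annexins and S100 genes split 5 to 5 among 13 tested. ANXA1 and S100A10 were at 233 and 177 TPM and at 102 and 115 TPM in Jurkat and listed at 0 in BJAB, at least 320-fold and 116-fold higher. S100A11 and S100A4 were at 155 and 153 TPM and at 778 and 867 TPM in BJAB, against 2.34 TPM in both libraries and 27.6 and 33.9 TPM in Jurkat.

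In metabolism, 10 of 21 tested glycolysis and lactate transport genes were higher in BJAB and 3 in Jurkat. Under median-of-ratios scaling 15 were higher in BJAB and 2 in Jurkat, and under quantile normalization 10 and 6. The phosphofructokinase isoforms differed in opposite directions. PFKP was at 203 and 210 TPM in Jurkat and at 0.18 and 0.249 TPM in BJAB (log2 difference 7.42 ± 0.09, adjusted p = 5.78e-09), and PFKM was at 2.69 and 3 TPM in Jurkat and at 35.3 and 38.5 TPM in BJAB. The fructose transporter gene SLC2A5 was at 231 and 249 TPM in BJAB and listed at 0 in Jurkat, at least 776-fold higher. Of 27 sterol and fatty acid synthesis genes, 14 were higher in Jurkat and 6 in BJAB, with a median of 0.55. INSIG1, a membrane regulator of sterol synthesis, was at 587 and 494 TPM in Jurkat against 129 and 94.7 TPM in BJAB. CYP51A1 lay on the other side, at 9.74 and 7.6 TPM in Jurkat and 53.8 and 52.4 TPM in BJAB.

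Most genes of the cytosolic ribosomal protein and housekeeping lists were not called. Of 60 cytosolic ribosomal protein genes, 37 were not called, 10 were higher in Jurkat and 13 in BJAB. The split turned with the scaling, to 3 and 21 under median-of-ratios scaling and to 17 and 11 under quantile normalization. RPL5, at 3948 and 3693 TPM in Jurkat and 1459 and 2027 TPM in BJAB, had the largest difference of this list that was named. Of 11 housekeeping genes, 7 were not called, 2 were higher in Jurkat and 2 in BJAB, a split of 1 and 4 under median-of-ratios scaling and 3 and 2 under quantile normalization. PPIF, which encodes the mitochondrial cyclophilin D, was at 197 and 201 TPM in Jurkat and at 198 and 279 TPM in BJAB, and the first BJAB library lay within the range of the Jurkat libraries. The difference was -0.24 ± 0.15 (adjusted p = 0.197). It passed the test under median-of-ratios scaling (-0.44, adjusted p = 0.0258) and without the first BJAB library (-0.49, adjusted p = 0.00713).

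The remaining genes with the largest differences belonged to no list above. In Jurkat they were CHI3L2, a chitinase-like secreted protein, at 2191 and 2064 TPM against 0 and 2.15 TPM, and TSPAN7, a tetraspanin, at 983 and 852 TPM against 0.379 and 0 TPM. ITM2A was at 747 and 711 TPM against 0.186 and 0.343 TPM, ESD, esterase D, at 706 and 663 TPM against 0 and 1.05 TPM, and SUMO3, a ubiquitin-like modifier, at 377 and 403 TPM against 0 and 0.164 TPM. SOX4 was at 354 and 350 TPM and listed at 0 in BJAB, at least 1750-fold higher. In BJAB, VAMP8, a vesicle fusion protein, was at 1109 and 1040 TPM against 0.359 and 0 TPM in Jurkat.

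The stimulated libraries of the same lines gave a further set of 4 libraries, not used in the fit. Of the 7668 genes called between the untreated lines, 6763 (88.2%) had a difference of the same sign between the stimulated lines. For 5801 (75.7%) the stimulated libraries of one line lay wholly above those of the other in the same direction. The matching shares over all tested genes in the stimulated libraries were not counted. In the untreated libraries 79.5% of all tested genes did not overlap, in either direction. CD3D was at 2749 and 2710 TPM in stimulated Jurkat and at 2.77 and 2.18 TPM in stimulated BJAB. CD79B was at 321 and 1106 TPM in stimulated BJAB and at 0.938 and 0.939 TPM in stimulated Jurkat. The stimulated BJAB libraries differed from each other more than those of any other group of the series, with an SD of the log2 difference of 1.011.

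Genes found in 1 line and near 0 in the other were in part under 1 TPM in the monocytic lines and in part measured there. At 20 TPM or more in both Jurkat libraries and under 1 TPM in both BJAB libraries stood 231 genes. Of these, 57 were also under 1 TPM in all 4 untreated monocytic libraries, and 119 were at 1 TPM or more in all 4. In the other direction stood 159 genes, of which 56 and 59 met these limits. The matching shares over all tested genes were not counted, so these counts do not show whether such genes differ from others. Of 4200 genes at 20 TPM or more in all untreated libraries of Jurkat, THP-1 and U937, 59 were under 1 TPM in both BJAB libraries, and 25 of these were listed at 0. SUMO3 was at 394 and 407 TPM in THP-1 and 321 and 388 TPM in U937, close to its Jurkat level, beside 0 and 0.164 TPM in BJAB. VIM, the intermediate filament vimentin, was at 224 and 238 TPM in Jurkat and listed at 0 in both BJAB libraries. GPX1, a glutathione peroxidase, was at 251 and 304 TPM in Jurkat and at 0 and 0.22 TPM in BJAB. Of 4030 genes at 20 TPM or more in BJAB, THP-1 and U937, 22 were under 1 TPM in both Jurkat libraries, and 10 of these were listed at 0. VAMP8 was at 1237 and 1186 TPM in THP-1 and 817 and 808 TPM in U937. TXNIP, an arrestin-domain protein that binds thioredoxin, was at 153 and 191 TPM in BJAB and at 0 and 0.216 TPM in Jurkat.

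**Figure D5:**
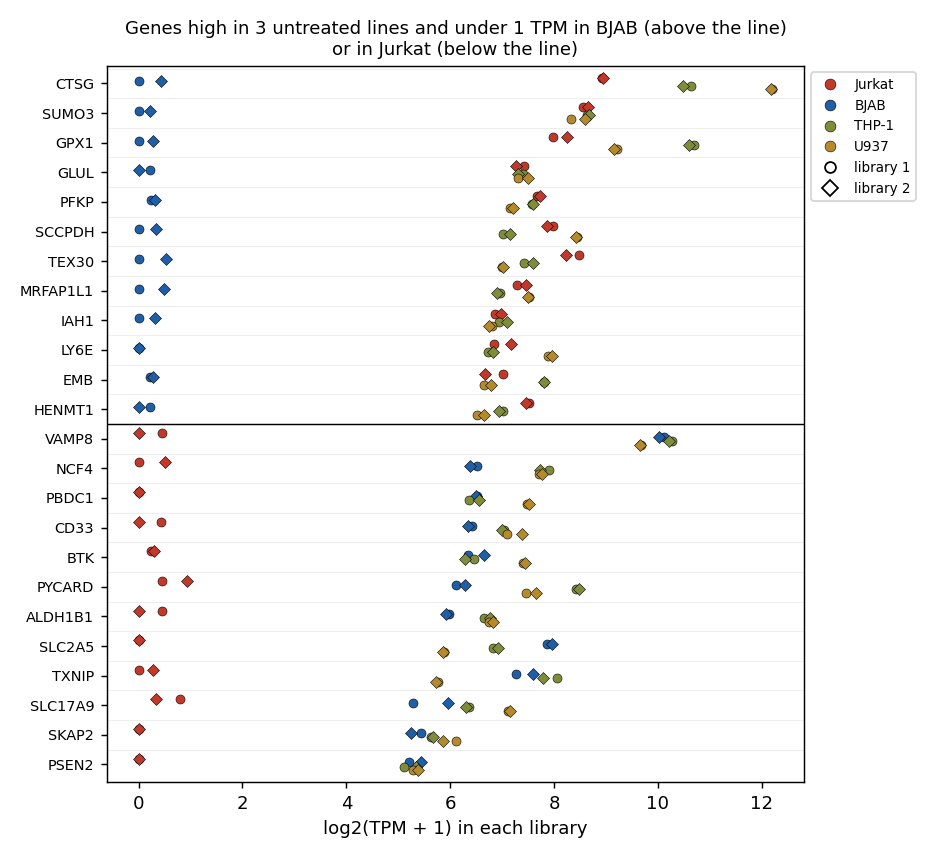
Level in each untreated library, as log2(TPM + 1), of genes at 20 TPM or more in 3 lines and under 1 TPM in BJAB (above the line) or in Jurkat (below the line), the 12 highest by their lowest level in the other lines. Colours mark the lines, circles the first and diamonds the second library. SUMO3, at 377 and 403 TPM in Jurkat, sits at the left edge in BJAB, and VAMP8, at 1109 and 1040 TPM in BJAB, sits there in Jurkat.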

How the data were processed

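RNA was measured by SmartSeq2 sequencing primed with oligo-dT. Per the submitters' processing notes, reads were aligned with TopHat2 to hg19 (for the versions, annotation and counter: not given in the sources used here). Deposited values are TPM from uniquely aligned reads, as the authors named the files, with 1 table per library, so genes with close copies may be under-counted. Genes are named by symbol.

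Genes at 1 TPM or more in at least 2 of the 4 libraries were tested with limma 3.58.1 (R 4.3.3) on log2(TPM + 1), with a mean-variance trend, in a fit of the 8 untreated libraries in 4 groups (4 residual and 3.66 prior degrees of freedom). The spread is thus shared with THP-1 and U937. Tests were two-sided, Benjamini-Hochberg adjusted over 12306 genes, at 0.05. The pseudocount understates differences of low genes. Whole reads were recovered from the TPM steps (tolerance 0.001) for 17860 of 19092 detected genes (93.5%); in each library 48.8 to 50.9% of the recovered counts above 50 were even. Standard errors measure the spread between libraries, and the floors of 3 reads cover counting error only.

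The 33 gene lists, the members named and the markers were chosen with earlier results of these data known. By rule the text names the 12 largest differences each way (20 TPM mean or more), up to 4 called members of each list (5 TPM or more) and 13 fixed genes; other members named were chosen after their values were seen. Alternatives were pseudocounts, filters, scalings, trend, replicate block, other sets of libraries, voom on the recovered reads and leaving out each library. Some genes and their results are not reported here. Promoters are from RefSeq GRCh38.p14.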

Additional observations from a re-analysis of the deposited data

Results flagged for a closer look

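Only called genes named by rule were looked at here, 135 with those not reported. Other tested genes also passed, such as NLGN4X, and the share over all tested genes was not counted. For 21 of the genes looked at, the Jurkat minus BJAB difference was not the same in untreated and in stimulated libraries. The test was the interaction term of a limma fit over all 16 libraries. The genes were chosen by their untreated difference, and the interaction uses the same untreated libraries. That choice by itself favours a narrower gap after stimulation, and its size was not tested. The values below are the untreated minus the stimulated difference on the log2 scale, with the interaction's adjusted p.

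For 5 of these genes the difference also had the opposite sign after stimulation. For RELB the value was -5.18 (adjusted p = 0.00869), with a stimulated difference of 2.0. RELB was at 41.4 and 44.1 TPM in stimulated Jurkat and at 3.04 and 28.7 TPM in stimulated BJAB. For HES1 it was 4.31 (adjusted p = 0.00117), with a stimulated difference of -1.86 and 18.8 and 14.9 TPM in stimulated BJAB. For MAML3, a Notch coactivator, it was -4.11 (adjusted p = 0.0019), with a stimulated difference of 0.43. The stimulated libraries of MAML3 overlapped, at 4.56 and 3.34 TPM in Jurkat and 1.59 and 4.11 TPM in BJAB. For CD68 it was -3.86 (adjusted p = 0.0136), with a stimulated difference of 1.4. CD68 was at 28.4 and 24.7 TPM in stimulated Jurkat and at 3.73 and 21.9 TPM in stimulated BJAB, so the second BJAB library lay near Jurkat. For MCL1 it was -2.37 (adjusted p = 0.0146), with a stimulated difference of 0.29.

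For the other 16 genes the sign was kept, though for some little of the difference was left. The stimulated difference was -0.33 for BCL2A1, -0.73 for TLR9 and 0.48 for RAG1, and the stimulated libraries of BCL2A1 and TLR9 overlapped. Among genes higher in Jurkat, RAG2 and RAG1 had values of 3.64 and 3.69 (adjusted p = 1.5e-05 for both), and MYB had 2.47 (0.0387). LAT, PRF1 and CD247 had a wider gap after stimulation, at -2.29 (0.00794), -1.57 (0.0031) and -1.58 (0.0153). Among genes higher in BJAB, the gap was narrower after stimulation for POU2F2 at -4.56 (0.000477), BCL2A1 at -3.42 (0.000897), TLR10 at -2.5 (0.00221), SERPINA9 at -1.69 (0.00879) and SLC2A5 at -2.4 (0.0111). It was also narrower for SPIB at -3.24 (0.0304), TNFRSF18 at -4.0 (0.0359), BCL6 at -4.24 (0.0392) and TLR9 at -4.57 (0.0482). For HEY1 it was wider, at 1.58 (0.0341). The stimulated BJAB libraries stood apart from each other, at 57.4 and 336 TPM for BCL6, 3.51 and 41 TPM for TLR9 and 4.91 and 43.8 TPM for TNFRSF18. They lay closer for SERPINA9, at 310 and 389 TPM, and SLC2A5, at 43.5 and 50.3 TPM. The part of the first stimulated BJAB library in these results was not tested.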

How the results depend on the processing

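The count of 7668 called genes (4801 higher in Jurkat, 2867 in BJAB) was within 1.5 times under pseudocounts of 0.1 and 5 (7312 and 7791), no filter (8232) and a TPM minimum of 5 (6207), both scalings (7584 and 7546), no trend (7451), the 4 libraries alone (7068) and voom on the recovered reads (7781). It fell to 4427 (2834 and 1593) in a fit of all 16 libraries and to 4389 (2775 and 1614) with a minimum log2 difference of 1, which tightens the rule by construction; for the first the cause was not tested. Leaving out 1 library gave 6449 to 6938 calls, 3937 to 4376 higher in Jurkat and 2450 to 2562 in BJAB. With the replicate number as a block the count was 7573 (4727 and 2846). The correlation of deviations of same-numbered Jurkat and BJAB libraries was 0.025. That gave no sign that the numbers pair them, but a single difference per line cannot exclude pairing. In each alternative 0 genes were called in the opposite direction to the reported fit. Of 135 called genes named by rule, 122 kept their call in all 16 alternatives. BCL2L1, MSH6, CCND3, SLC16A3, RPL8, SDHA, YWHAZ and GUSB lost it with all 16 libraries. The chi-square per degree of freedom between libraries of a line was 6.65 in Jurkat and 9.63 in BJAB, so they differed by more than sampling noise. Genes under about 1 TPM rest on few reads, and a level listed at 0 limits the transcript only to under 3 reads per library.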

Other observations

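Some genes near 0 in a line lay beside each other. Among 10691 genes at 5 TPM or more in both libraries of at least 1 untreated line, 1153 (10.8%) were under 0.5 TPM in both BJAB libraries and 752 (7.0%) in both Jurkat libraries. Neighbours are given in RefSeq GRCh38.p14 gene order, counting only these genes. In Jurkat, KLHL9, MTAP, CDKN2A and TUSC1 followed each other on chromosome 9 and were all near 0, and the first 3 were called higher in BJAB. MTAP, a methionine salvage enzyme, was listed at 0 in both Jurkat libraries and was at 32.4 and 29.8 TPM in BJAB. KLHL9 was listed at 0 in Jurkat and was at 15.7 and 15.5 TPM in BJAB. CDKN2B and CDKN2B-AS1, also of chromosome 9, were under 5 TPM in every untreated line and so were not counted. CDKN2B was listed at 0 in Jurkat and was at 1.89 and 3.63 TPM in BJAB. CDKN2B-AS1 had reads in both Jurkat libraries, at 0.132 and 0.165 TPM against 1.87 and 2.17 TPM in BJAB. In THP-1, KLHL9 and CDKN2A were also listed at 0 in both libraries and MTAP was at 0 and 0.314 TPM, while U937 held MTAP at 55 and 56.4 TPM. No genotype or copy number was measured.

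In BJAB, a run of 7 genes of chromosome X (ARMCX3, BEX5, TMSB15A, ARMCX5, BEX1, NXF3 and BEX4) and a run of 6 (BEX2, TCEAL9, BEX3, TCEAL4, TCEAL3 and TCEAL1) were near 0. All of the 6, and all of the 7 but ARMCX5, were called higher in Jurkat. In a run of 4 on chromosome 7, GIMAP7, GIMAP4 and GIMAP6 were called higher in Jurkat. Other runs separated the lines only in part. In a run of 8 on chromosome 16 near 0 in BJAB, 3 genes, IRX3, CRNDE and LPCAT2, were called higher in Jurkat, and CES1 was near 0 in both lines. In a run of 5 on chromosome 7 near 0 in Jurkat, HOXA10 was called higher in BJAB, and HOXA11, HOXA11-AS and HOXA13 were near 0 in both lines. CRNDE was at 186 and 172 TPM in Jurkat and listed at 0 in both BJAB libraries. These runs were chosen after the values were seen and have no test.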
